A study of Homo sapiens with 2 samples.

Results

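The 150 genes described here are long non-coding RNA genes of Huh7 cells, a human hepatoma line: 129 with a LINC name (long intergenic non-coding RNA), 18 with an SNHG name (small nucleolar RNA host gene), and GAS5, MALAT1 and NEAT1. They were chosen by name, from 273 names that matched in tables of 21225 genes, and by a mean level of at least 0.2 FPKM over both libraries. FPKM is the number of fragments scaled to transcript length and to the total of the library. The minimum left out 123 names. The last genes inside it were LINC01619, with a mean of 0.205 FPKM, and LINC01169, at 0.204 FPKM, and the first outside were LINC00853 and LINC01572, both at 0.198 FPKM.

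RNA-seq of total RNA gave 2 libraries, each made with an mRNA library kit: the control library came from Huh7 cells transfected with a control shRNA, the other from Huh7 cells in which an E2F6 shRNA had been used. E2F6 is an E2F family transcription factor that represses genes. Nothing else in the labels separates the cells, and the time after transfection and the number of shRNA sequences are not given in the sources used here. There was 1 library for each condition, so no difference below has a replicate check or a test, and each is a difference between these libraries.

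Long non-coding RNAs are transcribed and usually spliced like messenger RNAs, and most act, where an action is known, as RNA. The SNHG genes and GAS5 carry small nucleolar RNAs (snoRNAs) in their introns. SnoRNAs guide the chemical modification of ribosomal and other RNAs, and the spliced host RNA that is left is often a substrate of nonsense-mediated decay. NEAT1 is the scaffold of paraspeckles, nuclear bodies built on that RNA, and MALAT1 collects in nuclear speckles, which hold splicing factors. In liver cancer cells many LINC and SNHG RNAs have been studied for their levels.

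In the E2F6 shRNA library, E2F6 (ENSG00000169016) was listed at 0.997 FPKM, against 2.54 FPKM in the control shRNA library. This was 39.3% of the control, with a 95% counting interval of 25.8 to 59.3%, from an estimated 33 and 97 fragments. E2F6 has processed pseudogenes, with which its reads may be shared. The control shRNA library held an estimated 5211841 fragments over the listed genes and the E2F6 shRNA library 4496639. The intervals cover counting error only, as the reads carry no molecular identifiers and are not independent molecules. All 10 hepatocyte markers examined were present, at 4.56 FPKM or more, with a sum of 3428 FPKM in the control shRNA library and 2432 FPKM in the E2F6 shRNA library. HNF4A was higher (4.56 and 15.3 FPKM), while ALB (173 and 77.6 FPKM) and APOB (318 and 138 FPKM) were lower, and 7 markers were within the rule of size given below. Of 6 fibroblast markers 5 were listed, with sums of 39.6 and 60.6 FPKM, and the members did not go one way: COL1A1 (20.1 and 36.7 FPKM), COL1A2 (14.6 and 19.5 FPKM) and COL3A1 (0.393 and 1.17 FPKM) were higher, while LUM was at 3.51 and 2.54 FPKM and PDGFRB at 0.969 and 0.711 FPKM. The endothelial marker PECAM1 was at 1.53 and 2.83 FPKM, the other 3 of its list not being analysed here, and 2 of 4 macrophage markers summed to 2.20 and 1.90 FPKM. The part of these marker shifts in the values of the non-coding RNAs was not tested. In bulk RNA, fewer cells of a kind and less RNA per cell cannot be told apart.

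Most of the 150 RNAs stood at similar levels in both libraries, and those that differed by 2-fold went in both directions. A rule of size was used that asks for a difference of at least 1 on the log2(FPKM + 1) scale and a mean of at least 1 FPKM. Of the 64 members with that mean, none was higher by this rule and 1, LINC00694, was lower. Over all 11574 genes that reach this mean, 1.17% were higher and 2.06% lower, 3.23% in either direction. The FPKM ratio itself was at least 2-fold in 33 of the 150 members (22.0%), 18 higher and 15 lower. Among all 16313 genes whose mean was 0.2 FPKM or more, 5.43% were at least 2-fold higher and 9.61% lower, together 15.0%.

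The members were low in level. The median member had a mean of 0.726 FPKM and an estimated 34 fragments in both libraries together, against 2.67 FPKM and 138 fragments for all genes over the same minimum. Among the 86 members between 0.2 and 1 FPKM, 23 (26.7%) differed by 2-fold, where the share of all genes in that range was 33.1%. Among the 64 members at 1 FPKM or more, 5 were higher and 5 lower (15.6%), where 2.52% and 5.12% of all genes were, 7.65% in either direction. Of the 148 members with a counting interval, 9 were at least 2-fold higher and 9 at least 2-fold lower with an interval without 1. Of all 16196 genes with an interval, 452 (2.79%) were higher in this way and 941 (5.81%) lower.

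The median difference of the members was 0.04 on the log2(FPKM + 1) scale, with the middle of the distribution from -0.22 to 0.22, and that of all genes was -0.02. The difference was above 0 in 80 members and below 0 in 70. Summed over all 150, the level was 546 FPKM with the control shRNA and 514 FPKM with the E2F6 shRNA. The hosts summed to 153 and 162 FPKM and the LINC RNAs to 381 and 345 FPKM, and both sums rest on a few abundant genes. Without SNHG6 the other 18 hosts summed to 91.7 and 88.98 FPKM, and without LINC01419, LINC00657 and LINC00261 the other 126 LINC RNAs summed to 189 and 196 FPKM. The median difference was -0.05 for the hosts and 0.05 for the LINC RNAs. MALAT1 and NEAT1 were both lower.

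**Figure D1:**
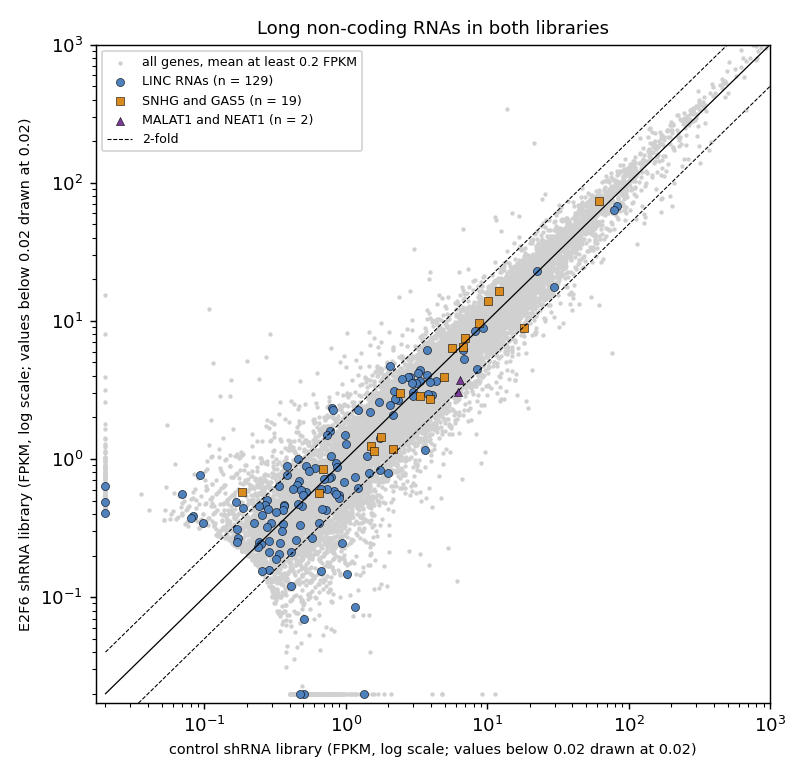
FPKM of each gene in the control shRNA library (x axis, log scale) and the E2F6 shRNA library (y axis, log scale), 1 library each, with all 16313 genes at a mean of at least 0.2 FPKM in grey and the 150 long non-coding RNAs in colour. The solid line marks equal values and the dashed lines a 2-fold ratio. Most members lie between the dashed lines and those outside lie on both sides, mainly at low levels; the points on the edges are RNAs listed at 0 in 1 library.

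All 19 host genes held at least 1 snoRNA or the related Cajal body RNA in their span, 50 in all by the RefSeq gene table. GAS5 held 11 and SNHG1 held 8, while SNHG6, SNHG8 and SNHG19 held 1 each. The values of a host are not values of its snoRNAs, which are given here to show what the hosts carry. Below are 4 box C/D snoRNAs of GENCODE release 29 (build GRCh38), 1 from each of the hosts SNHG19, SNHG5, SNHG1 and SNHG16. Capitals mark the letters TGATGA of box C near the 5′ end and CTGA of box D near the 3′ end, the elements bound by the proteins that make the particle. SNORD60 lies in SNHG19 at chr16:2155023-2155105, minus strand, and SNORD50B in SNHG5 at chr6:85677589-85677658, minus strand. SNORD25 lies in SNHG1 at chr11:62855564-62855632, minus strand, and SNORD1B in SNHG16 at chr17:76561109-76561192, plus strand.
SNORD60: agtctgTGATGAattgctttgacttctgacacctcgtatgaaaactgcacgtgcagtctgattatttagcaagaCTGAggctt
SNORD50B: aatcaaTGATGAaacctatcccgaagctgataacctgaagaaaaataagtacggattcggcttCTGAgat
SNORD25: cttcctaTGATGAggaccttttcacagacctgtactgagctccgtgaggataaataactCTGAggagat
SNORD1B: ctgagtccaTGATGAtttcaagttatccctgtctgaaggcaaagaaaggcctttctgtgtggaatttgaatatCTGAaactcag

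Many snoRNA hosts, coding and non-coding, start transcription at a C followed by a run of pyrimidines, the terminal oligopyrimidine element that ties translation of such RNAs to growth. RefSeq promoters (GRCh38.p14, 250 bases before to 50 after the start) were found for 15 of the 19 hosts. Here and in the search for E2F sequences below, each gene was judged by the first start listed for it. Any other starts were not examined. Of these 15 starts, 4 had a C and an unbroken run of at least 5 pyrimidines from the first base, and 4.04% of all 27305 promoters did. The 4 are shown from 25 bases before the start to 25 after it, with the run in capitals. SNHG4 lies at chr5:139274076-139274125, plus strand, SNHG12 at chr1:28581849-28581898, minus strand, SNHG19 at chr16:2155334-2155383, minus strand, and SNHG5 at chr6:85678709-85678758, minus strand.
SNHG4: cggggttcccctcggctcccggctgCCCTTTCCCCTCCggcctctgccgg
SNHG12: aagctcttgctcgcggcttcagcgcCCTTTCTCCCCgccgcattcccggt
SNHG19: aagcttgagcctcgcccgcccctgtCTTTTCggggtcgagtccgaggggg
SNHG5: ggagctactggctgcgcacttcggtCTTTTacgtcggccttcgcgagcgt

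The runs were 13, 11, 6 and 5 bases long. Of these 4 hosts SNHG19 was lower in the E2F6 shRNA library, and the intervals of the other 3 ratios included 1, as given next.

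For most host genes the counting interval did not separate the libraries. Of the 19, 9 were above the control level and 10 below it, and in 15 (78.9%) the 95% interval of the ratio included 1. Over all genes with an interval, 64.3% included 1, 16.2% lay above it and 19.5% below. The 3 host intervals above 1 were those of SNHG6, SNHG8 and SNHG7, and the 1 below it was that of SNHG19. By the 2-fold ratio, past which 15.0% of all genes lay, SNHG20 was higher and SNHG19 lower. None passed the rule of size.

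SNHG6 (ENSG00000245910, chromosome 8), host of SNORD87, was the most abundant host, at 61.4 FPKM with the control shRNA and 73.4 FPKM with the E2F6 shRNA. Its ratio was 1.196, with an interval of 1.06 to 1.35, and its difference of 0.25 was 0.52 once the trend of coding genes with GC content was subtracted (the GC correction below). SNHG6 shares 29.3% of its exon bases with MCMDC2 on the opposite strand, which was at 0.259 and 0.224 FPKM. SNHG8 (ENSG00000269893, chromosome 4), host of SNORA24, was at 12.1 and 16.4 FPKM, a ratio of 1.36 (1.03 to 1.81). SNHG7 (ENSG00000233016, chromosome 9), host of SNORA17A and SNORA17B, was at 10.1 and 13.99 FPKM, a ratio of 1.39 (1.16 to 1.64), and its difference of 0.43 was 0.28 after the same correction. SNHG7 shares 25.2% of its exon bases with FAM69B on the other strand (10.1 and 8.97 FPKM), and whether reads were counted by strand is not given in the sources used here, so the split between these genes is uncertain.

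SNHG19 (ENSG00000260260, chromosome 16), host of SNORD60, stood at 18.3 FPKM with the control shRNA and 8.94 FPKM with the E2F6 shRNA. It was 2.04-fold lower, with an interval of 1.43 to 2.96, from an estimated 107 and 45 fragments, and its difference of -0.95 was just short of the rule of size. SNHG19 shares no exon base with another gene. TRAF7, the coding gene 340 bases away, was at 19.7 and 22.4 FPKM. After the GC correction the difference of SNHG19 was -1.11 and passed the rule.

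The remaining abundant hosts were close to equal. SNHG3, host of SNORA73A and SNORA73B, was at 8.73 and 9.64 FPKM, a ratio of 1.10 (0.923 to 1.33). SNHG5, host of SNORD50A and SNORD50B, was at 6.96 and 7.57 FPKM, a ratio of 1.09 (0.777 to 1.49). SNHG1, whose introns carry 8 snoRNAs of the box C/D kind, was at 6.75 and 6.50 FPKM, a ratio of 0.963 (0.715 to 1.32), and its difference turned from -0.05 to 0.06 after GC correction. GAS5, named for its rise in growth-arrested cells, was at 5.62 and 6.38 FPKM, a ratio of 1.14 (0.798 to 1.60). None of these 4 differed beyond counting error.

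Several hosts of middle and low level were lower by less than counting error. SNHG15, host of SNORA9, was at 4.93 and 3.91 FPKM, a ratio of 0.794 (0.563 to 1.13). SNHG9, host of SNORA78, was at 3.91 and 2.73 FPKM, a ratio of 0.698 (0.342 to 1.38), while RPS2, a ribosomal protein gene and snoRNA host 99 bases away, was at 53.7 and 76.3 FPKM. SNHG4, host of SNORA74A, was at 2.16 and 1.19 FPKM, a ratio of 0.550 (0.275 to 1.04). It shares 14.01% of its exon bases with MATR3 on the same strand, so reads there could be assigned to either gene. SNHG17 was at 3.34 and 2.86 FPKM, SNHG12 at 1.77 and 1.43 FPKM, SNHG10 at 1.59 and 1.15 FPKM and SNHG25 at 1.52 and 1.24 FPKM, the last from an estimated 5 and 3 fragments. SNHG16, host of 3 snoRNAs, was on the other side of equal, at 2.43 and 3.002 FPKM.

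Below 1 FPKM, SNHG11 was at 0.685 and 0.850 FPKM and SNHG21 at 0.648 and 0.571 FPKM, with 72.9% of the exon bases of SNHG21 shared with the unnamed gene AC105339.2. SNHG20, host of the Cajal body RNA SCARNA16, was at 0.185 FPKM with the control shRNA and 0.577 FPKM with the E2F6 shRNA. That ratio of 3.13 rested on an estimated 4 and 10 fragments and its interval, 0.839 to 12.7, included 1.

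**Figure D2:**
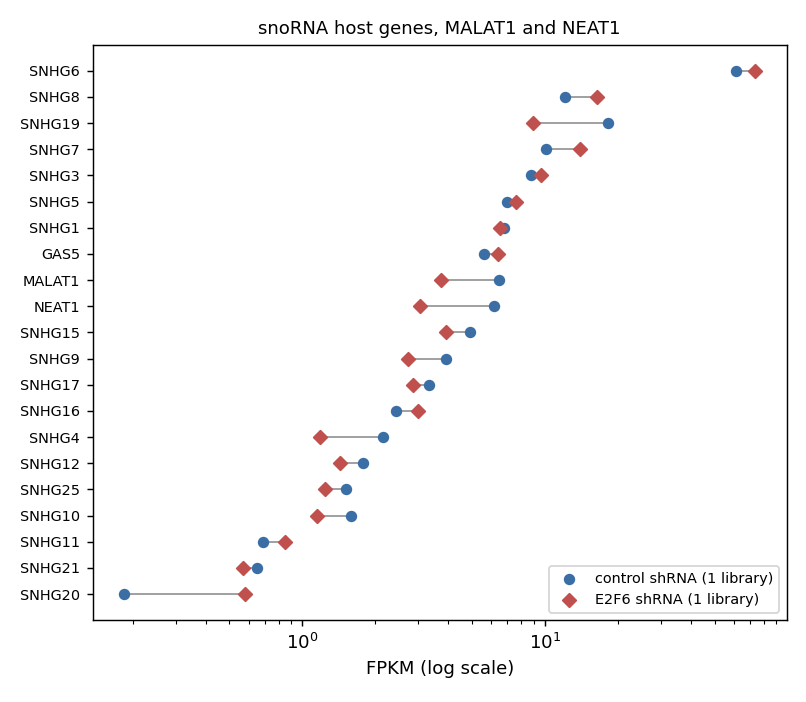
FPKM (x axis, log scale) of the 19 snoRNA host genes, MALAT1 and NEAT1 in the control shRNA library (blue circles) and the E2F6 shRNA library (red diamonds), 1 library each, ordered by mean level, with a grey line joining the values of a gene. SNHG6 stands apart at 61.4 and 73.4 FPKM; the long lines that run to the left are those of SNHG19, MALAT1, NEAT1 and SNHG4, and the one that runs to the right is that of SNHG20.

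The 2 nuclear body RNAs were both lower in the E2F6 shRNA library. NEAT1 (ENSG00000245532, chromosome 11) was at 6.18 FPKM with the control shRNA and 3.06 FPKM with the E2F6 shRNA, from an estimated 513 and 218 fragments. It was 2.02-fold lower (1.72 to 2.38), with a difference of -0.82, short of the rule of size. The value is that of the gene and does not separate its 8 annotated transcripts. MALAT1 (ENSG00000251562, chromosome 11), which lies near NEAT1 and whose 3′ end is made by cleavage instead of polyadenylation, was at 6.44 and 3.74 FPKM. Its ratio was 0.580 (0.428 to 0.775), with a difference of -0.65. How the mRNA library kit captured an RNA with such an end was not tested. After GC correction the difference of NEAT1 was -0.77 and that of MALAT1 was -0.29, for transcripts with 45.5% and 39.6% GC. FRMD8, a coding gene near NEAT1 on that chromosome, was at 2.32 and 3.69 FPKM, a ratio of 1.59 (1.09 to 2.28).

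The proteins of the same bodies did not pass the rule of size. Of 14 paraspeckle proteins, all at 1 FPKM or more, none was past the rule, 4 were above the control level and 10 below it, with a median difference of -0.07. The lowest were NUDT21, a 3′ end cleavage factor (22.7 and 14.2 FPKM), and DAZAP1, an RNA-binding protein (11.6 and 7.43 FPKM), and the highest were the chromatin remodeller SMARCA4 (10.8 and 12.2 FPKM) and the core protein PSPC1 (14.7 and 16.0 FPKM). Of 18 genes for speckle proteins and for the 3′ maturation of MALAT1, none was past the rule, 5 were above and 13 below, with a median of -0.24 that moved to -0.05 after GC correction. In that list the RNase P subunit RPP40 was at 1.99 and 1.01 FPKM, a ratio of 0.506 (0.258 to 1.02). The kinase CLK1 was at 3.01 and 1.73 FPKM, a ratio of 0.575 (0.376 to 0.885). The splicing factor RNPS1 was at 4.94 and 5.88 FPKM, a ratio of 1.19 (0.905 to 1.55). The nuclease ELAC2 was at 7.83 and 8.54 FPKM, a ratio of 1.09 (0.885 to 1.34). Of these 4 named genes only CLK1 had an interval that excluded 1. Several genes of the list not named by rule also had intervals below 1. Among them were SRPK1, with a ratio of 0.680 (0.557 to 0.825), and SRSF3, with a ratio of 0.762 (0.680 to 0.852). No gene of the list had an interval above 1.

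The most abundant LINC RNAs were close to equal or lower in the E2F6 shRNA library. LINC01419 (ENSG00000253898, chromosome 8) was at 82.6 and 67.6 FPKM, a ratio of 0.819 (0.766 to 0.875). LINC00657 (ENSG00000260032, chromosome 20), now named NORAD, an RNA that binds Pumilio proteins and guards chromosome stability, was at 79.2 and 64.0 FPKM, a ratio of 0.808 (0.779 to 0.838). Both intervals lay below 1. The transcripts are low in GC content, 41.6% for LINC00657, and after the GC correction the difference of LINC01419 was 0.15 in place of -0.28, and that of LINC00657 was -0.05 in place of -0.30.

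LINC00261 (ENSG00000259974, chromosome 20), an RNA of endoderm next to the gene of the endoderm factor FOXA2, was at 29.4 FPKM with the control shRNA and 17.7 FPKM with the E2F6 shRNA. Its ratio was 0.601 (0.540 to 0.667) and its difference -0.70. FOXA2, 2363 bases away, was at 29.4 and 33.9 FPKM, a ratio of 1.15 (1.06 to 1.25). The annotation used here gives 86.1% of the exon bases of LINC00261 also to AL121722.1 on the same strand. AL121722.1 was not among the genes listed for these libraries. How the reads of the shared bases were assigned was not tested.

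Among the next in level, LINC01556 (ENSG00000204709) was at 8.51 and 4.52 FPKM, a ratio of 0.531 (0.335 to 0.823). LINC01608 was at 6.82 and 5.34 FPKM, a ratio of 0.784 (0.511 to 1.15), which turned above equal after GC correction, with a difference of 0.10. LINC00888 was at 9.32 and 8.81 FPKM, LINC01578, now CHASERR, an RNA beside the chromatin remodeller gene CHD2, at 8.18 and 8.49 FPKM, and LINC00526 at 6.69 and 6.12 FPKM, with 41.2% of its exon bases shared with LINC00667 on the other strand. The interval of all 3 included 1. LINC00857 (ENSG00000237523) was at 3.76 and 6.13 FPKM, a ratio of 1.63 (1.23 to 2.16).

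LINC00694 (ENSG00000225873, chromosome 3) was the 1 member that fell by the rule of size. It was at 3.66 FPKM with the control shRNA and 1.17 FPKM with the E2F6 shRNA, 3.13-fold lower (1.69 to 6.38), with a difference of -1.10 from an estimated 48 and 13 fragments. In the current symbol table this gene is C3orf86P, a pseudogene name. It shares 18.3% of its exon bases with the zinc finger gene ZNF445 on the same strand, and ZNF445 rose from 1.66 to 4.68 FPKM, a difference of 1.10 and a ratio of 2.82 (2.37 to 3.38). How the reads of the shared bases were assigned was not tested.

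At a mean of 1 FPKM or more, 5 LINC RNAs were at least 2-fold higher. LINC00205 (ENSG00000223768, chromosome 21) had the most fragments of them, an estimated 121 and 240, and was at 2.06 FPKM with the control shRNA and 4.74 FPKM with the E2F6 shRNA. Its ratio was 2.30 (1.85 to 2.90) and its difference 0.91. The coding gene POFUT2, which adds fucose to secreted proteins and lies 152 bases away, was at 5.53 and 7.50 FPKM, a ratio of 1.36 (1.10 to 1.68). LINC00863 (ENSG00000224914, chromosome 10) was at 0.799 and 2.33 FPKM, a ratio of 2.92 (1.98 to 4.36), with a difference of 0.89. LINC01311 (ENSG00000260924, chromosome 22) was at 0.808 and 2.26 FPKM, a ratio of 2.79 (1.63 to 4.97), from 20 and 48 fragments. The intervals of these 3 excluded 1, and those of the other 2 did not: LINC00431 at 0.768 and 1.59 FPKM from 9 and 16 fragments, and LINC01481, now PRANCR, an RNA of epidermal progenitor cells, at 0.737 and 1.502 FPKM from 7 and 13 fragments.

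On the lower side at this level, LINC01139 (ENSG00000215808, chromosome 1) was at 1.97 and 0.795 FPKM, a ratio of 0.403 (0.249 to 0.655), and its difference of -0.73 was -0.39 after GC correction. LINC01137 (ENSG00000233621, chromosome 1), transcribed away from the RNase gene ZC3H12A, was at 1.76 and 0.828 FPKM, a ratio of 0.471 (0.251 to 0.846). ZC3H12A, 141 bases away, was at 16.97 and 16.8 FPKM, a ratio of 0.987 (0.860 to 1.13). LINC01137 and LINC00694 were thus lower beside coding partners that were equal or higher.

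**Figure D3:**
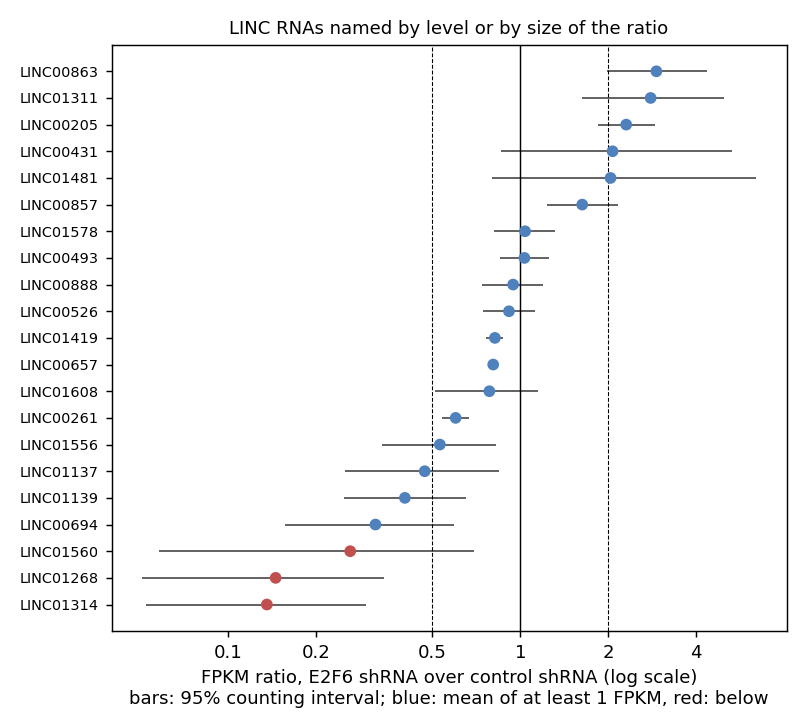
Ratio of FPKM in the E2F6 shRNA library to that in the control shRNA library (x axis, log scale) for LINC RNAs named by their level or by the size of their ratio, with 95% counting intervals as bars and 1 library a condition. Blue points have a mean of at least 1 FPKM and red points a lower mean; the solid line marks equal levels and the dashed lines a 2-fold ratio. LINC00863, LINC01311 and LINC00205 lie right of the upper dashed line and LINC01314, LINC01268 and LINC01560 at the far left.

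The lowest ratios with at least 20 fragments belonged, apart from LINC00694 and LINC01139, to RNAs with a mean below 1 FPKM. LINC01265, for which no fragment number could be estimated, is outside this ranking. It was at 1.17 and 0.0848 FPKM, a ratio of 0.0727 without an interval, below that of LINC01314. LINC01314 (ENSG00000259417, chromosome 15) was at 0.508 and 0.0690 FPKM, a ratio of 0.136 (0.0524 to 0.297), from an estimated 60 and 7 fragments over a transcript of 6890 bases. The annotation now counts it as the coding gene CTXND1. LINC01268 (ENSG00000227502, chromosome 6), now MROCKI, was at 1.02 and 0.148 FPKM, 6.87-fold lower (2.94 to 19.7), from 48 and 6 fragments. MARCKS, the actin-binding protein gene 4542 bases from it, was at 108 and 82.4 FPKM, a ratio of 0.761 (0.734 to 0.788). LINC01560 (ENSG00000196741, chromosome X) was at 0.937 and 0.245 FPKM, a ratio of 0.262 (0.0579 to 0.695). After GC correction the difference of LINC01268 went from -0.81 to -0.38 and that of LINC01560 from -0.64 to -0.31.

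A few RNAs were listed at 0 in 1 library. LINC01023 was at 1.34 FPKM with the control shRNA, an estimated 10 fragments, and listed at 0 in the E2F6 shRNA library, and LINC01063 (0.503 FPKM) and LINC01372 (0.477 FPKM) were likewise listed at 0 there. LINC01049 (0.641 FPKM), LINC01433 (0.487 FPKM) and LINC01169 (0.408 FPKM) were above 0 with the E2F6 shRNA and listed at 0 with the control shRNA. The count was 3 on each side, all with 10 fragments or fewer where a fragment number could be estimated. Over all genes above the 0.2 FPKM minimum, 136 were at 0 in the control shRNA library and 188 in the E2F6 shRNA library.

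Some LINC names have since been given to coding genes, and 6 members are annotated as protein-coding in GENCODE release 29. LINC00493, now SMIM26, which encodes a small mitochondrial protein, was at 22.3 and 23.1 FPKM. LINC00116, now MTLN, which encodes the mitochondrial micropeptide mitoregulin, was at 2.49 and 3.80 FPKM, a ratio of 1.53 (1.002 to 2.33). LINC00998, now SMIM30, was at 4.36 and 3.69 FPKM, and its difference turned from -0.19 to 0.19 after GC correction. Of the 147 members in the current symbol table, 28 carry another symbol there. CYTOR, listed as LINC00152, a cytoplasmic RNA studied in tumours, was at 3.26 and 4.20 FPKM, a ratio of 1.29.

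Members near a coding gene were compared with it. A coding gene within 5000 bases, with both means at 1 FPKM or more, was found for 20 members, and 5 of these pairs had differences of the same sign and 15 of opposite signs. Over all genes with such a coding neighbour, 59.6% of 4989 pairs had the same sign. In 5 of the 20 pairs the neighbour is also the gene that shares most exon bases with the member. A single neighbour was taken for each member, so the split depends on this choice where several genes overlap a member. SNHG4 was paired with SIL1 on the other strand, which was above its control level, and counted as opposite. MATR3, which overlaps SNHG4 on the same strand, was lower like SNHG4, and with MATR3 the pair would have the same sign. Other choices of neighbour were not counted. Pairs of opposite sign included SNHG9 and RPS2, SNHG19 and TRAF7, LINC00261 and FOXA2, and LINC00694 and ZNF445, whose values are given above, and SNHG10 with GLRX5 (15.5 and 21.2 FPKM). Pairs of the same sign included LINC00205 with POFUT2 and LINC00857 with ANXA11 (10.5 and 13.7 FPKM). Signs were counted whatever the size of the difference. In some of these pairs the interval of a ratio included 1, as for SNHG9 (0.342 to 1.38), SNHG10 (0.318 to 1.43) and TRAF7 (0.978 to 1.31). The direction of such a gene is within counting error. The count is a description of these libraries, and the part of reads in shared exons was not tested.

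E2F proteins bind variants of the sequence TTTCCCGC. Promoters of 108 of the 150 members were in the RefSeq table and were searched on both strands for TTTCCCGC, TTTCGCGC, TTTGGCGC, TTTGCCGC and TTCCCGCC, of which the first and the last can overlap. One or more of these words stood in 7 member promoters (6.48%) and in 1521 of all 27305 (5.57%). They were those of SNHG1, SNHG17, LINC00960, LINC00941, LINC00997, LINC01023 and LINC00441. The median difference was 0.01 for these 7 and 0.05 for the other members searched. The most abundant after SNHG1 were SNHG17, with a ratio of 0.856 (0.571 to 1.28), and LINC00960, at 2.94 and 3.53 FPKM, with a ratio of 1.204 (0.887 to 1.64), and both intervals included 1.

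Of these promoters 2 are shown with the word in capitals, as it reads on the printed strand (the reverse complement of TTTCGCGC in SNHG17 and of TTTCCCGC in LINC00441), because in both it lies within 50 bases before the start, at position -37 from the start in SNHG17 and -31 in LINC00441. LINC00441 is now RB1-DT, the RNA divergent from the E2F-controlled tumour suppressor gene RB1, and was at 0.171 and 0.249 FPKM from 2 estimated fragments in each library (a difference of 0.09, and -0.03 after GC correction), with RB1 at 10.8 and 6.60 FPKM. The windows are SNHG17 at chr20:38435279-38435578, minus strand, and LINC00441 at chr13:48303653-48303952, minus strand. A match in these letters is a description and does not show that a factor bound there.
SNHG17: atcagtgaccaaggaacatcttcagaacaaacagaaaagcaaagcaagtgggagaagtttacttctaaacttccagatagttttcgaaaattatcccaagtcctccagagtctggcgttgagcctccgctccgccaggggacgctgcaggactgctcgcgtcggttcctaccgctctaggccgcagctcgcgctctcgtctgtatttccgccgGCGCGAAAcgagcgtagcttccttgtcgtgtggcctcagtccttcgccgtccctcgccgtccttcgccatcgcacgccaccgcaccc
LINC00441: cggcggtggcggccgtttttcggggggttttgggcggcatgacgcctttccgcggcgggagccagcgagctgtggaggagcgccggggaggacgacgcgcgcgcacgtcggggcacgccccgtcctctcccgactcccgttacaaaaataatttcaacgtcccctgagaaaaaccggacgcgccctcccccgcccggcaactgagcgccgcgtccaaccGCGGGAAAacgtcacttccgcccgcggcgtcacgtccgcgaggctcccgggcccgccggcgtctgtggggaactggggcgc

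Differences moved with GC content across the coding genes, and less so across the members. Over 9900 protein-coding genes at 1 FPKM or more, Spearman's correlation between transcript GC content and the difference was 0.48, and over the 64 members at that level it was 0.18. Both are across genes of the same libraries, which are not independent replicates. The 22 members with the lowest GC content, up to 45.5%, had a median difference of -0.06, and the 22 with the highest, from 49.7%, had 0.16. When the trend of the coding genes was subtracted, the correlation over the members was -0.18 and their median 0.11. SNHG19, LINC00694 and NEAT1 lay well below that trend and LINC00205, LINC00863 and LINC01311 well above it.

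**Figure D4:**
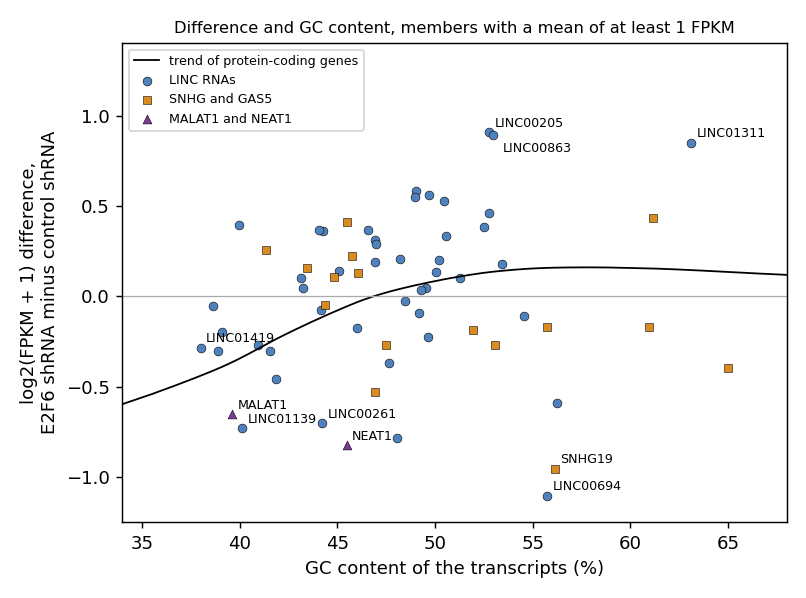
Difference in log2(FPKM + 1), E2F6 shRNA minus control shRNA library (y axis), against the GC content of the transcripts in percent (x axis) for the 64 members with a mean of at least 1 FPKM, each a point, 1 library a condition. The black curve is the trend of 9900 protein-coding genes. MALAT1, LINC01139 and LINC00261 lie low at low GC content, where the curve is also below 0, while SNHG19 and LINC00694 lie low where the curve is above 0.

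The genes that make, use or decay the host RNAs were examined as lists. Of 17 proteins of snoRNA particles and their assembly at 1 FPKM or more, none was past the rule of size, 10 were above the control level and 7 below it, with a median difference of 0.16. The assembly factor RPAP3 was at 10.1 and 4.68 FPKM and the core protein NOP58 at 21.5 and 13.5 FPKM, while the H/ACA proteins NOP10 (94.6 and 121 FPKM) and NHP2 (29.9 and 38.5 FPKM) were the highest. Of 18 nonsense-mediated decay genes 1 was higher, 11 were above the control level and 7 below, with a median of 0.07. The 1 was SMG8, a subunit of the kinase complex that marks UPF1, which rose from 1.28 to 5.88 FPKM, a ratio of 4.59 (3.24 to 6.58).

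Coding hosts of snoRNAs were compared with the non-coding ones. Of 37 coding hosts none was past the rule, 24 were above the control level and 13 below it, and the median was 0.13. It was -0.11 for the 16 SNHG and GAS5 hosts at 1 FPKM or more, -0.05 for all 19 of them and -0.002 for all genes at 1 FPKM or more. ZFAS1, a non-coding host given below, and LINC00888, whose span holds SNORA63D and SNORA63E, were not in that set. The elongation factor EEF2 was at 307 and 466 FPKM and the ribosomal protein gene RPL13A at 71.6 and 105 FPKM, while the nucleolar proteins PPAN (7.36 and 4.18 FPKM) and GNL3 (13.8 and 8.22 FPKM) were the lowest. Many of the 37 coding hosts are ribosomal protein genes. All of these but RPL21 (8.76 and 8.38 FPKM) and RPL23A (25.4 and 24.5 FPKM) were above the control level. More of the other coding hosts were below that level than above it. No test of the difference between coding and non-coding hosts was made, and the part of the ribosomal protein genes in it was not tested.

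Long non-coding RNAs with names outside the LINC and SNHG series gave a similar picture. Of 44 listed, 32 were measured and 17 were at 1 FPKM or more, of which none was past the rule, 7 were above the control level and 10 below, with a median of -0.03 that was 0.002 with a trimmed-mean factor. ZFAS1, another snoRNA host, was at 24.3 and 37.9 FPKM, a ratio of 1.56 (1.34 to 1.81). The small nuclear RNA RN7SK, which holds the elongation factor P-TEFb inactive, was at 1.41 and 3.08 FPKM. Its ratio was 2.18, with an interval of 0.869 to 5.94 that included 1. HCG11 was at 2.54 and 1.497 FPKM and CCAT1 at 2.66 and 1.63 FPKM.

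**Figure D5:**
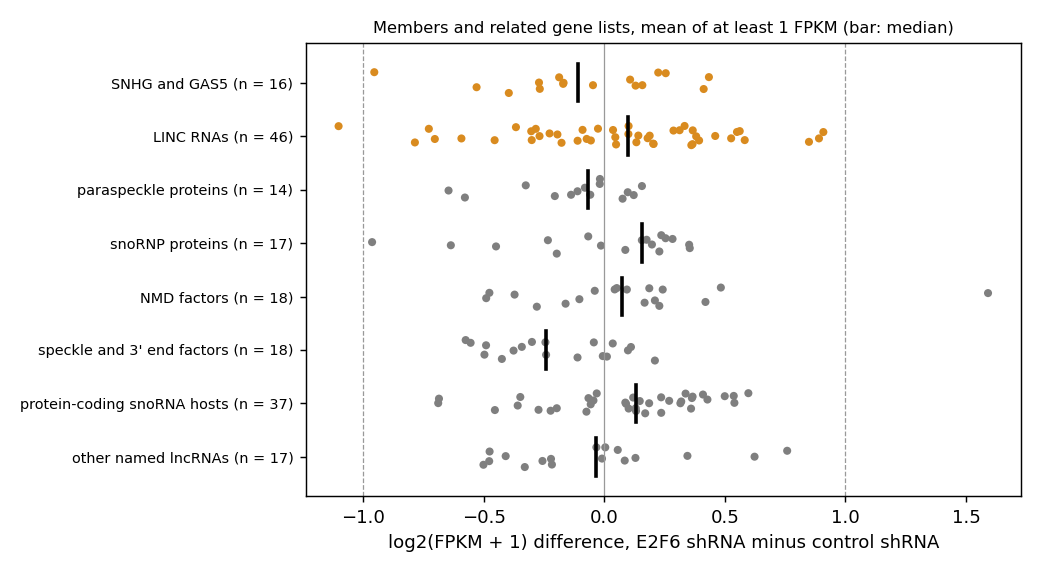
Difference in log2(FPKM + 1), E2F6 shRNA minus control shRNA library (x axis), for genes whose mean was 1 FPKM or more, each a point, in the host and LINC members (orange) and in the related lists (grey), with n beside each name and 1 library a condition. Black bars are medians and dashed lines the rule of size at -1 and 1. SMG8 among the decay factors and LINC00694 among the LINC RNAs are the points past the dashed lines.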

How the data were processed

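The authors deposited 1 gene table per library, with 21227 rows, of which 2 held no gene and were dropped. The header names only the library. The values were read as FPKM because they sum to 235513 and 245097 and because the submitters' processing notes name StringTie 1.3.0, with HISAT2 2.0.4 and the build GRCh37. The settings, the annotation and the strand of counting are not given in the sources used here.

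For genes with 1 annotated transcript, 97.9% and 97.5% of the deposited FPKM values came to whole fragments within 0.01, which put the scaling totals at 17139212 and 14724821. For the other genes fragments were estimated from mean transcript lengths in GENCODE release 29 (GRCh38), which held 148 of 150 members, and their intervals are approximate. Ratios have exact conditional binomial 95% intervals (scipy 1.17.1). The scaling totals are larger than the estimated 5211841 (control shRNA) and 4496639 (E2F6 shRNA) fragments over the listed genes. Whether these units are reads or fragments is not known. If the reads of a pair were counted singly, the intervals are too narrow. Differences are log2(FPKM + 1), which makes those of low genes smaller than their log2 ratio. With 1 library per condition, no test was made. The GC correction was a lowess fit (span 0.3, statsmodels 0.14.6) over 9900 coding genes. Coordinates are those of GRCh38, as the tables hold none.

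The members and lists were chosen with earlier results of these data known, and the member rule used the mean level of both libraries. Named were E2F6, MALAT1, NEAT1, GAS5, every SNHG gene, LINC genes past the rule of size, the 10 highest in level, the 5 highest and 5 lowest ratios with at least 20 fragments, and list genes past the rule or the 2 highest and 2 lowest. Other genes named were chosen after their values were seen. Procedures were tested on simulated data.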

Additional observations from a re-analysis of the deposited data

How the results depend on the processing

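No paired analysis was possible because there is 1 library per condition. Count models were not run because the tables hold FPKM. Under the rule of size, where 0 members were higher and 1 lower, a pseudocount of 0.1 gave 3 higher and 4 lower and a 1.5-fold threshold 3 and 8. The lower count was 2 after GC correction, 2 with no minimum level, 0 with a minimum mean of 5 FPKM and 0 among members that share no exon base. The ratio of at least 2-fold, 18 higher and 15 lower, was met by 5 and 5 at a mean of at least 1 FPKM and by 9 and 9 with intervals without 1, since fewer genes qualify. Quantile normalization gave 24 higher and 12 lower. The difference of E2F6 was -0.82 and, with a pseudocount of 0.1, -1.27. GC correction turned the sign of 30 of the 148 members with a GC value, 10 of them at 1 FPKM or more and none with a difference over 0.32 in size. Among the 42 members named by rule it turned 6: LINC01419 (0.15), LINC01608 (0.10), SNHG1 (0.06), LINC00888 (0.05), LINC00493 (-0.03) and SNHG11 (-0.03). Of others named it turned LINC00998 (0.19), LINC00441 (-0.03), LINC00997 (-0.01) and LINC01619 (0.14). No other setting turned a sign among the 42, and the cause was not tested. Depth limits the 86 members below 1 FPKM, whose median was an estimated 15 fragments in both libraries together.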
